A study of Mus musculus with 14 samples.

Results

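The AP-1 and EGR immediate early factors examined here are 10 genes, the FOS family members Fos, Fosb, Fosl1 and Fosl2, the JUN family members Jun, Junb and Jund, the related factor Atf3, and Egr1 and Egr2. They were taken by gene symbol from the 22155 genes of the deposited count table, and all 10 had an entry. RNA sequencing had been done in 6 libraries, 3 from cells transduced with sgSgf29 and 3 from cells transduced with sgCtrl, out of 14 samples in the series. The remaining samples, from chromatin immunoprecipitation, were not used here. The cells are mouse acute myeloid leukemia cells that carry the MLL-AF9 fusion oncogene and express Cas9, and both groups share this background. In the sgSgf29 group a lentiviral ipUSEPR vector delivered a guide RNA against Sgf29, a histone-reading subunit of the SAGA and ATAC complexes, and in the sgCtrl group the same vector delivered a control guide. Both groups were selected in puromycin at 2 μg/ml for 3 days. The cultures were pools of transduced cells by this description, and whether the number of a library stands for a separate culture or for another guide sequence is not given in the labels. The p-values below therefore reflect only how far these libraries spread, and that spread may be technical.

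AP-1 is a pair of basic leucine zipper (bZIP) proteins, most often 1 FOS and 1 JUN protein, that binds a short palindrome in promoters and enhancers. Some genes of its subunits, and those of the zinc finger factors EGR1 and EGR2, are switched on within minutes by growth factors and stress. Kinase cascades act on factors already bound at the promoters of these genes, and most of their transcripts are short-lived. Not all subunit genes behave so, and most cells express Jund without stimulation. In myeloid cells, AP-1 and EGR factors are known for their part in the maturation of monocytes and macrophages and in inflammatory gene expression.

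The promoters of 4 members are shown because these members had log2 fold changes beyond 0.5 in either direction and a window in the RefSeq promoter table. Windows of 8 of the 10 members were used, without Egr1 and Fosl1. Each line gives the 250 bases before the annotated start, 5′ to 3′ on the strand of the gene, from RefSeq on GRCm38.p6. Capitals mark matches, on either strand, to the 8 motifs searched. These were the AP-1 palindrome TGACTCA, the cyclic AMP response element (CRE) TGACGTCA, its variant TGACATCA, a short CRE, TGACGT, which is part of the full one, the CCAAT box, the GC box GGGCGG, the EGR motif GCGNGGGCG, which overlaps the GC box, and the TATA box TATAAA.
Jun (chr4:95052223-95052472, minus strand): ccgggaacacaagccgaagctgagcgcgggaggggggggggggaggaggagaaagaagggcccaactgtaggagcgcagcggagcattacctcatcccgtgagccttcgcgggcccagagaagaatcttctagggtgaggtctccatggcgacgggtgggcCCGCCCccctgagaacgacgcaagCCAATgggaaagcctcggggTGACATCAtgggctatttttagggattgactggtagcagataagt
Fosl2 (chr5:32136222-32136471, plus strand): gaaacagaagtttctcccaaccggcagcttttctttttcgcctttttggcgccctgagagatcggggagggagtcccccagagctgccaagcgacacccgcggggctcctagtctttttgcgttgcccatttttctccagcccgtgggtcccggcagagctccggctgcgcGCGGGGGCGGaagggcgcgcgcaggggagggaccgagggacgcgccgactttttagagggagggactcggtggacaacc
Fos (chr12:85473640-85473889, plus strand): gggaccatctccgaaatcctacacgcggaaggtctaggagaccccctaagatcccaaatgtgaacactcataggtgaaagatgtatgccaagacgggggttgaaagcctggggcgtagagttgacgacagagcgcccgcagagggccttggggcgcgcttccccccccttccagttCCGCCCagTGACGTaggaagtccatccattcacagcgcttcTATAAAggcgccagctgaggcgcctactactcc
Atf3 (chr1:191183334-191183583, minus strand): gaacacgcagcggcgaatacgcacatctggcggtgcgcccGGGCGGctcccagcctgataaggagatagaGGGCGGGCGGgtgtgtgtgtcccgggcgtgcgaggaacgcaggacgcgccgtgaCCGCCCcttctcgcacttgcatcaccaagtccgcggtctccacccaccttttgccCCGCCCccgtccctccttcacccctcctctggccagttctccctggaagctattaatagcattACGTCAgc

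The Jun window held the CRE variant TGACATCA at 45 to 38 bases before the start, a CCAAT box at 65 to 61 and a GC box on the other strand at 89 to 84. The Fos window held the short CRE at 66 to 61 bases before the start, a TATA box at 33 to 28 and a GC box on the other strand at 74 to 69. The Fosl2 window held a match to the EGR motif at 79 to 71 bases before the start, which shares bases with a GC box. The Atf3 window held 5 GC boxes and a short CRE on the other strand at 8 to 3 bases before the start. Among 32817 RefSeq windows of the same length, 2.93% held TGACATCA, 6.46% the short CRE, 4.70% the EGR motif, 12.4% the TATA box, 33.8% the CCAAT box and 32.7% the GC box. The AP-1 palindrome, in 4.46% of all windows, and the full CRE, in 1.55%, were in none of the 4 windows shown. A match of letters is a description of the sequence, not a bound site.

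The deposited counts gave 16003990 to 21786618 reads assigned to genes per library. They were scaled with TMM, a trimmed mean of the log ratios between libraries, and levels are given as CPM, the read count relative to the scaled library size. Sgf29 itself was at 12.6, 13.4 and 17.4 CPM in the sgSgf29 libraries, against 36.2, 40.4 and 40.4 CPM in the sgCtrl libraries (log2 fold change -1.43, edgeR, adjusted p = 2.9e-10). Its transcript was thus reduced and still present in the cells that carried its guide. Of the genes with enough reads to be tested, 11169 in number, 69.8% differed between sgSgf29 and sgCtrl cells at an adjusted p under 0.05 (edgeR's quasi-likelihood test with Benjamini-Hochberg adjustment over all genes tested), 35.4% higher and 34.4% lower. Checked against markers, all libraries expressed Kit, Myb and Hoxa9, which are genes of leukemic progenitors, while the hemoglobin genes Hbb-bs, Hbb-bt, Hba-a1 and Hba-a2, the T cell gene Cd3e and the mast cell gene Cpa3 had 0 reads throughout. Other genes of the T and NK cell and the mast and basophil lists had reads, among them Nkg7 and Mcpt8, whose values are given with the markers of maturation.

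Of the 10 members, 8 had enough reads to be tested, 4 were higher in sgSgf29 cells, 2 were lower and 2 did not pass. With 69.8% of all genes tested called, these counts are close to the background and say nothing particular about the members as a set. The median log2 fold change of the 8 members was 0.11, beside 0.01 over all genes tested. In the FOS family Fos and Fosl2 were higher and Fosl1 was lower, and in the JUN family Jun was lower and Jund was higher, a call that was lost without sgCtrl library 2 (edgeR, adjusted p = 0.050). In bulk libraries such as these, fewer cells of a type and less RNA per cell cannot be told apart. The plot of CPM by library shows all 10 members, and the plot of fold changes shows the 8 that were tested.

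**Figure D1:**
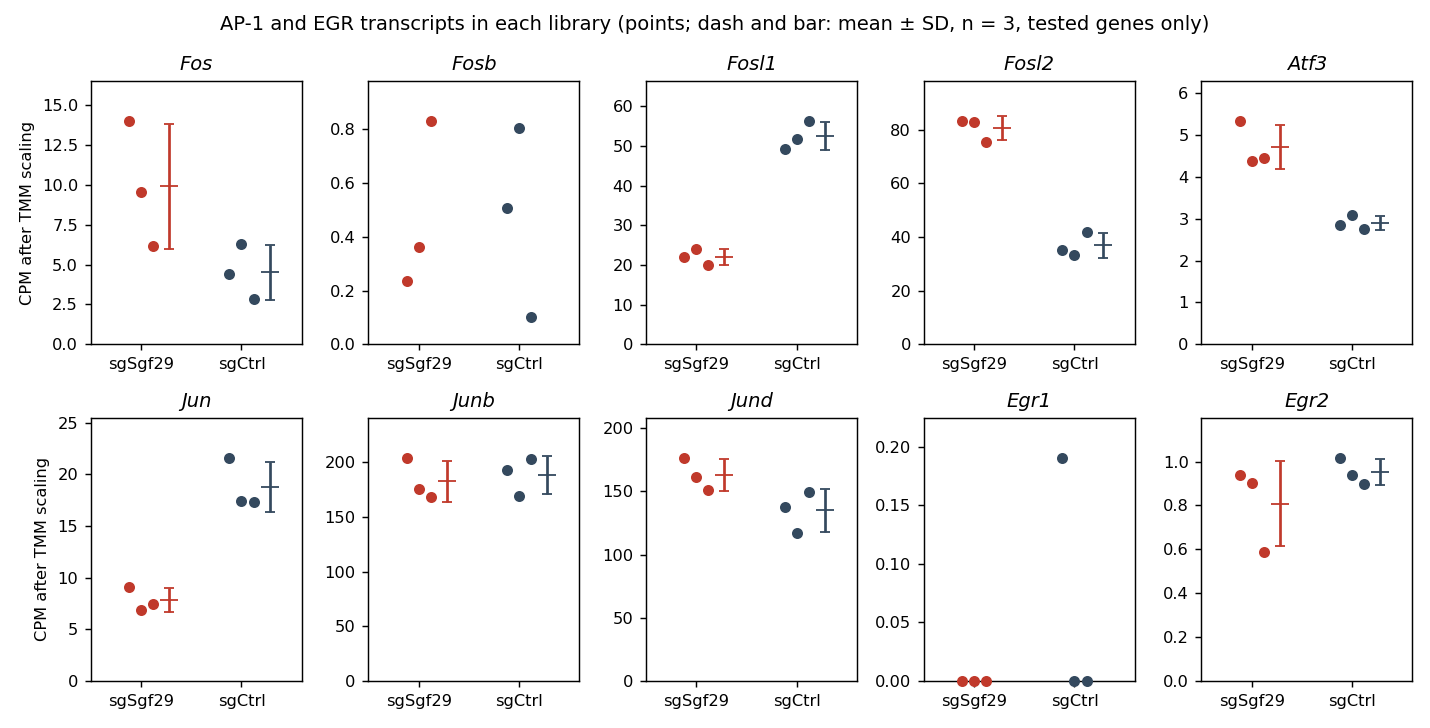
CPM after TMM scaling of the 10 AP-1 and EGR genes (vertical axes, each starting at 0) in the 3 sgSgf29 libraries (red points) and the 3 sgCtrl libraries (dark points), with the mean and SD beside the points for tested genes. The sgSgf29 points lie above the sgCtrl points for Fosl2, Jund and Atf3 and below them for Fosl1 and Jun, and the groups overlap for Fos, Fosb, Junb, Egr1 and Egr2.

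Fosl2 encodes FRA-2, a FOS protein without the strong activation domains of FOS and FOSB. It measured 83.2, 82.9 and 75.3 CPM in the sgSgf29 libraries, against 35.1, 33.4 and 41.9 CPM in the sgCtrl libraries. All 3 sgSgf29 libraries were high and close to each other, and the groups did not overlap. The means were 80.4 ± 4.46 CPM in sgSgf29 cells and 36.8 ± 4.51 CPM in sgCtrl cells (SD, n = 3 each), giving a log2 fold change of 1.12 with a standard error of 0.08 (edgeR, adjusted p = 1.7e-10). Fosl2 lies on the plus strand of chromosome 5, from 32136472 to 32157840, has 4 exons and no annotated overlapping gene. Its promoter is the window with the EGR motif shown above.

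Fosl1 encodes FRA-1, the closest relative of FRA-2, and moved the other way. It measured 22.1, 23.9 and 19.9 CPM in the sgSgf29 libraries, against 49.2, 51.8 and 56.3 CPM in the sgCtrl libraries. The highest sgSgf29 library was well below the lowest sgCtrl library, with little spread in either group. The means were 22.0 ± 2.00 CPM in sgSgf29 cells and 52.4 ± 3.54 CPM in sgCtrl cells (SD, n = 3 each), giving a log2 fold change of -1.25 with a standard error of 0.09 (edgeR, adjusted p = 6.4e-11). Fosl1 lies on the plus strand of chromosome 19, from 5447698 to 5455938, and 67.7% of its exon bases are also exon bases of Ccdc85b on the opposite strand. Ccdc85b was lower too, at 57.0 ± 4.06 CPM in sgSgf29 cells and 94.9 ± 12.6 CPM in sgCtrl cells (SD, n = 3 each), giving a log2 fold change of -0.74 (edgeR, adjusted p = 1.2e-07). The library kit is directional, but the strand setting of the counting is not given in the sources used here. Reads over the shared bases may thus have been assigned to Fosl1, assigned to Ccdc85b or left out as ambiguous. If they were left out, the level of Fosl1 per kilobase of exon, used below, would be too low. If reads of Ccdc85b were assigned to Fosl1, the level of Fosl1 would be too high. Its fold change would then include part of that of Ccdc85b, which was not tested.

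Fos encodes the founding FOS protein, a strong activator. It measured 14.0, 9.56 and 6.16 CPM in the sgSgf29 libraries, against 4.38, 6.29 and 2.85 CPM in the sgCtrl libraries. The level varied within both groups, and sgSgf29 library 3 was just below sgCtrl library 2, so that the groups overlapped. The fit called Fos higher in sgSgf29 cells, at 9.91 ± 3.94 CPM against 4.51 ± 1.73 CPM in sgCtrl cells (SD, n = 3 each), giving a log2 fold change of 1.15 with a standard error of 0.26 (edgeR, adjusted p = 0.00048). The counts behind it were 239, 212 and 126 reads in the sgSgf29 libraries and 69, 94 and 57 reads in the sgCtrl libraries. The SD was 39.7% of the mean in sgSgf29 cells and 38.3% in sgCtrl cells, where the median gene tested had 6.09% and 7.58%. Without sgSgf29 library 1, where Fos was highest, the log2 fold change was 0.84 (adjusted p = 0.011, edgeR). Fos lies on the plus strand of chromosome 12, from 85473890 to 85477274, in 4 exons.

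Fosb, the close relative of Fos, was close to the limit of detection. It had 4, 8 and 17 reads in the sgSgf29 libraries and 8, 12 and 2 reads in the sgCtrl libraries, too few to be tested. The groups overlapped, and the highest and the lowest library belonged to different groups. Summed, 29 reads in sgSgf29 cells gave 0.486 CPM (exact 95% Poisson interval 0.325 to 0.697) and 22 reads in sgCtrl cells gave 0.434 CPM (0.272 to 0.657). These intervals cover counting error only. A difference was not detectable at this depth.

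Jun encodes c-JUN, the partner with which FOS proteins form the classical AP-1 dimer. It measured 9.14, 6.90 and 7.48 CPM in the sgSgf29 libraries, against 21.6, 17.4 and 17.3 CPM in the sgCtrl libraries. The groups were far apart and did not overlap. The means were 7.84 ± 1.17 CPM in sgSgf29 cells and 18.8 ± 2.44 CPM in sgCtrl cells (SD, n = 3 each), giving a log2 fold change of -1.27 with a standard error of 0.13 (edgeR, adjusted p = 3.4e-08). Jun is a single-exon gene on the minus strand of chromosome 4, from 95049036 to 95052222. The antisense gene Junos covers 7.28% of the exon bases of Jun and has no entry under this name in the count table. The Jun promoter is the window with the CRE variant shown above.

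Junb encodes a JUN protein that can oppose c-JUN and is expressed throughout the myeloid lineage. It measured 203.9, 175.3 and 167.7 CPM in the sgSgf29 libraries, against 192.4, 169.1 and 203.1 CPM in the sgCtrl libraries. The groups overlapped almost completely. The log2 fold change was -0.05 with a standard error of 0.08 (edgeR, adjusted p = 0.60), with a 95% interval from -0.21 to 0.12, so that a change of the size seen for Jun lies outside it. With scaling by library size alone, under which the median over all genes was 0.24 on the log2 scale, Junb was at 0.18 and was called higher (edgeR, adjusted p = 0.034).

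Jund encodes the JUN protein that most cells express without stimulation. It measured 176.6, 161.7 and 151.1 CPM in the sgSgf29 libraries, against 138.0, 116.9 and 149.9 CPM in the sgCtrl libraries. All 3 sgSgf29 libraries were above all sgCtrl libraries, but the lowest of the sgSgf29 and the highest of the sgCtrl libraries nearly touched. The means were 163.1 ± 12.8 CPM in sgSgf29 cells and 134.9 ± 16.7 CPM in sgCtrl cells (SD, n = 3 each), giving a log2 fold change of 0.27 with a standard error of 0.08 (edgeR, adjusted p = 0.0055). The call rested on sgCtrl library 2, where Jund was lowest. Without it the log2 fold change was 0.18, at an adjusted p of 0.05, and did not pass. On the opposite strand, Gm11175 shares 30.5% of the exon bases of Jund and has no entry under this name in the count table. Jund and Junb both lie on chromosome 8 and have 1 exon each.

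Atf3 encodes a stress-induced bZIP protein that pairs with JUN proteins and often represses. It measured 5.33, 4.37 and 4.45 CPM in the sgSgf29 libraries, against 2.86, 3.08 and 2.75 CPM in the sgCtrl libraries. The level was low, and the groups did not overlap. The means were 4.72 ± 0.534 CPM in sgSgf29 cells and 2.90 ± 0.169 CPM in sgCtrl cells (SD, n = 3 each), giving a log2 fold change of 0.70 with a standard error of 0.19 (edgeR, adjusted p = 0.0032). Atf3 lies on the minus strand of chromosome 1, from 191170296 to 191183333, with the promoter rich in GC boxes shown above. Across the members, the groups were apart for 3 genes that were higher (Fosl2, Jund and Atf3) and 2 that were lower (Fosl1 and Jun), where 37% and 35.1% of all genes tested were apart in these directions.

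**Figure D2:**
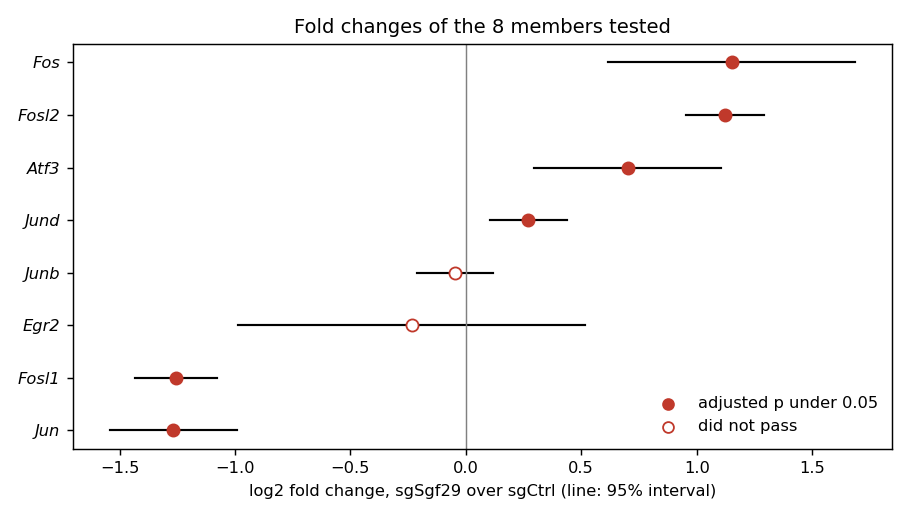
Log2 fold change, sgSgf29 over sgCtrl (horizontal axis), of the 8 members tested, each with its 95% interval from edgeR's quasi-likelihood fit. Filled points passed an adjusted p under 0.05. Fos, Fosl2, Atf3 and Jund lie above 0, Fosl1 and Jun lie below -1, and the intervals of the open points, Junb and Egr2, include 0.

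The EGR genes were at the limit of detection in these cells. Egr1, the zinc finger factor of monocyte differentiation, had 0 reads in all 3 sgSgf29 libraries and 3 reads in the sgCtrl libraries, all of them in sgCtrl library 1. A count of 0 in the sgSgf29 libraries together allows up to 0.0502 CPM, taken as 3 reads, or 0.0618 CPM as the upper end of the exact 95% Poisson interval, and the 3 reads in sgCtrl cells are 0.0592 CPM (exact 95% Poisson interval 0.0122 to 0.173). A difference in Egr1 was not detectable at this depth.

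Egr2, which shares targets with EGR1 in macrophages, had 16, 20 and 12 reads in the sgSgf29 libraries and 16, 14 and 18 reads in the sgCtrl libraries. This is 0.938, 0.901 and 0.586 CPM in sgSgf29 cells, against 1.02, 0.937 and 0.899 CPM in sgCtrl cells. The groups overlapped, and each summed to 48 reads. The log2 fold change was -0.23 with a standard error of 0.36 (edgeR, adjusted p = 0.57), with a 95% interval from -0.99 to 0.52, wide enough to hold a change as large as that of Atf3 in the other direction. The remaining EGR genes were no higher. Egr3 had 4 reads in the sgSgf29 libraries and 4 in the sgCtrl libraries, and Egr4 had 0 reads in all libraries.

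Levels of different genes were compared per length, as CPM per kilobase of RefSeq exon. In sgSgf29 cells Junb was highest, at 99.1 ± 10.4, followed by Jund at 56.7 ± 4.45, Fosl2 at 13.7 ± 0.761, Fosl1 at 12.9 ± 1.17, Fos at 4.70 ± 1.87, Jun at 2.46 ± 0.366 and Atf3 at 2.39 ± 0.270 CPM per kilobase (SD, n = 3). Egr2, Fosb and Egr1 were below 1 on this scale. The libraries of Fosl2 overlapped with those of Fosl1, those of Jun with those of Atf3, and those of Egr2 with those of Fosb. In sgCtrl cells the order was Junb at 102.3 ± 9.46, Jund at 46.9 ± 5.80, Fosl1 at 30.8 ± 2.08, Fosl2 at 6.28 ± 0.769, Jun at 5.89 ± 0.767, Fos at 2.14 ± 0.819 and Atf3 at 1.46 ± 0.0855 CPM per kilobase (SD, n = 3). Here Fosl2 overlapped with Jun, Fos with Atf3, and Fosb with Egr1. On this scale Fosl1 and Fosl2 thus lay side by side in sgSgf29 cells and were well apart in sgCtrl cells. The place of Fosl1 in both orders depends on how reads over the bases shared with Ccdc85b were counted.

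The make-up of the FOS family differed between the groups on this scale. Fosl1 made up 38.3%, 42.8% and 42.3% of the summed level of the 4 FOS genes in the sgSgf29 libraries, against 77.9%, 77.4% and 79.5% in the sgCtrl libraries. Fosl2 made up 41.9%, 43.1% and 46.4% in the sgSgf29 libraries, against 16.1%, 14.5% and 17.2% in the sgCtrl libraries. Fos made up 19.6%, 13.8% and 10.5% in the sgSgf29 libraries, against 5.61%, 7.60% and 3.25% in the sgCtrl libraries. Fosl1 was below Fosl2 in all 3 sgSgf29 libraries, narrowly so in library 2, and above it in all 3 sgCtrl libraries. The summed FOS level was 33.8, 32.8 and 27.7 CPM per kilobase in the sgSgf29 libraries, against 37.1, 39.3 and 41.5 CPM per kilobase in the sgCtrl libraries, and these sums did not overlap. These shares are a description of the members, with no test, and rest on exon lengths. They carry the uncertainty of Fosl1 over its antisense neighbor. The share of Fosl1 would be too low in all libraries if reads over the shared bases were left out. It would be too high if reads of Ccdc85b were assigned to Fosl1.

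The JUN family kept its order, with Junb first, Jund second and Jun far below in each library. Jun made up 1.64%, 1.41% and 1.61% of the summed JUN level in the sgSgf29 libraries, against 4.26%, 3.96% and 3.24% in the sgCtrl libraries. Jund made up 35.1%, 36.6% and 36.0% in the sgSgf29 libraries, against 30.1%, 29.4% and 31.0% in the sgCtrl libraries. Junb made up 63.3%, 62.0% and 62.4% in the sgSgf29 libraries, against 65.6%, 66.6% and 65.7% in the sgCtrl libraries. The shares of all 3 genes lay apart between the groups, by less than 10 percentage points each. The summed JUN level overlapped between the groups, at 146.0 to 175.0 CPM per kilobase in the sgSgf29 libraries and 138.0 to 167.9 CPM per kilobase in the sgCtrl libraries.

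**Figure D3:**
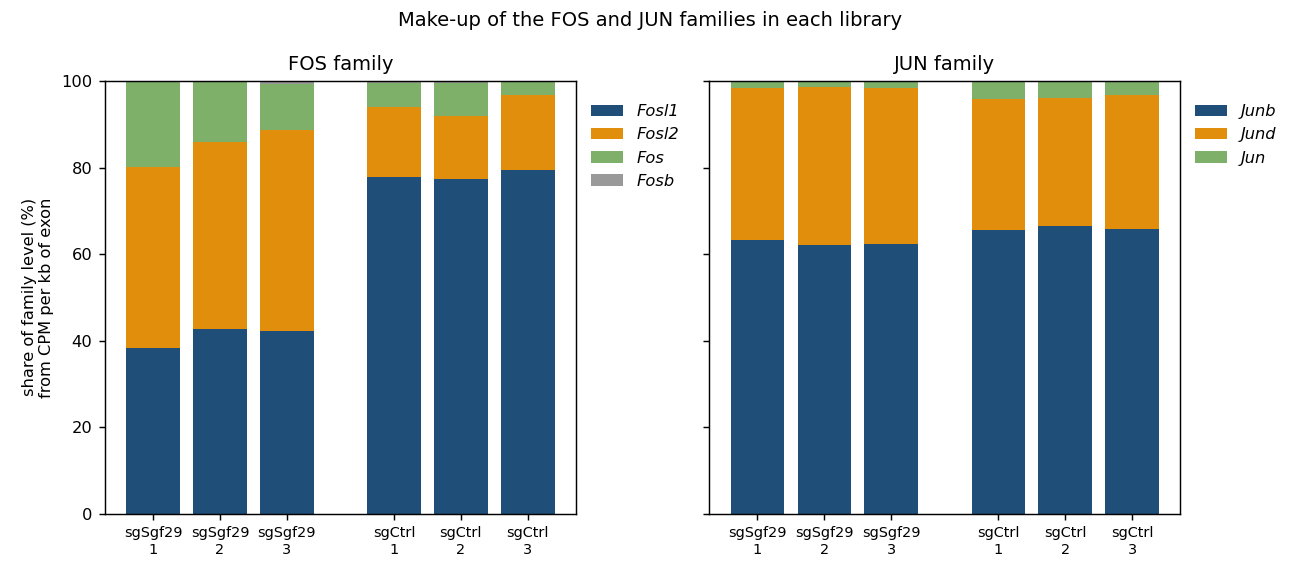
Share of each gene (vertical axis, percent) in the summed level of the FOS family (left) and of the JUN family (right), from CPM per kilobase, with 1 bar per library, sgSgf29 on the left of each panel and sgCtrl on the right. Fosl1 takes 38.3% to 42.8% of the FOS bars in sgSgf29 and 77.4% to 79.5% in sgCtrl, while the JUN bars differ by a few percent.

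Other bZIP proteins that pair with FOS and JUN proteins were examined next. The counts of this and the following lists stand beside 35.4% of all genes tested called higher and 34.4% called lower, and they are given as a description. Of 12 such genes, 9 were tested, of which 6 were higher in sgSgf29 cells, 0 were lower and 3 did not pass, with a median log2 fold change of 0.40. At an unadjusted p under 0.05, 0 were lower in edgeR as well, and DESeq2 and limma-voom gave 0 too. Creb5, an activator of the ATF2 group, had 4.96 ± 0.549 CPM in sgSgf29 cells and 0.330 ± 0.0729 CPM in sgCtrl cells (SD, n = 3 each), giving a log2 fold change of 3.86 (adjusted p = 5.8e-10, edgeR). Jdp2, a repressor that pairs with JUN proteins, had 55.1 ± 2.52 CPM in sgSgf29 cells and 32.6 ± 0.955 CPM in sgCtrl cells, a log2 fold change of 0.75. The small MAF proteins Mafk and Maff, which have no activation domain, had log2 fold changes of 0.62 and 0.43. Nab1, a corepressor that binds EGR proteins, rose to 34.7 ± 1.42 CPM in sgSgf29 cells, against 20.7 ± 0.997 CPM in sgCtrl cells (log2 fold change 0.74, adjusted p = 1.4e-07, edgeR). Its relative Nab2 had 1.05 ± 0.299 CPM in sgSgf29 cells and 1.53 ± 0.347 CPM in sgCtrl cells and did not pass (log2 fold change -0.54, adjusted p = 0.15).

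Next came factors that act on the promoters of immediate early genes. Of 10 tested genes of SRF, its cofactors, CREB and the CREB coactivators, 7 were higher, 2 were lower and 1 did not pass, with a median log2 fold change of 0.39. Mkl1, an actin-regulated cofactor of SRF, had 94.8 ± 7.52 CPM in sgSgf29 cells and 44.2 ± 2.12 CPM in sgCtrl cells (SD, n = 3 each), giving a log2 fold change of 1.10 (adjusted p = 3.9e-11, edgeR). Elk3, a ternary complex factor that binds with SRF, and Atf1, a CREB relative, had log2 fold changes of 0.93 and 0.72. Srf itself fell to 117.7 ± 8.31 CPM in sgSgf29 cells, against 155.0 ± 3.71 CPM in sgCtrl cells, a log2 fold change of -0.40.

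The kinases that relay signals to these factors included 20 tested genes of the RAS-ERK and the JNK and p38 pathways. Of these 12 were higher, 1 was lower and 7 did not pass, with a median log2 fold change of 0.19. Mapk3, which encodes the kinase ERK1, had 218.2 ± 6.32 CPM in sgSgf29 cells and 106.5 ± 4.31 CPM in sgCtrl cells (SD, n = 3 each), giving a log2 fold change of 1.03 (adjusted p = 1.2e-11, edgeR). Map2k1, the kinase upstream of ERK, was at a log2 fold change of 0.86. Map2k4 and Map2k7, the kinases upstream of JNK, were at 0.95 and 0.58. Hras, the 1 lower gene and named after its value was seen, was at -0.60. With scaling by library size alone, 17 of the 20 were higher.

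Other immediate early genes did not move as a block. Of 24 in the table, 18 were tested, of which 12 were higher, 5 were lower and 1 did not pass, with a median log2 fold change of 0.77. Klf6, a zinc finger factor, had 31.0 ± 2.42 CPM in sgSgf29 cells and 6.67 ± 0.481 CPM in sgCtrl cells (SD, n = 3 each), giving a log2 fold change of 2.22 (adjusted p = 5.0e-13, edgeR). Dusp1, a phosphatase of ERK, JNK and p38, and Zfp36, a protein that destabilizes AU-rich messages, had log2 fold changes of 1.62 and 1.09. Myc fell to 112.8 ± 12.9 CPM in sgSgf29 cells, against 222.1 ± 12.7 CPM in sgCtrl cells. The other lower genes, named after their values were seen, were Ier2 at -0.99, Nr4a2 at -0.96, Gadd45b at -0.73 and Plk3 at -0.60, of which Plk3 did not pass when library sizes alone were used for scaling (adjusted p = 0.097, edgeR).

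Handling of cells can induce immediate early genes, and the libraries were compared for it. Among the sgSgf29 libraries, library 1 was the highest for 7 of the 8 members tested and for 12 of the 18 other immediate early genes, while it was the highest for 35.4% of all genes tested. Library 3 was the highest of the sgSgf29 libraries for 34.6% of all genes tested. Among the heat shock genes listed as responding to handling, it was the highest for 4 of the 5 tested. Of these 5 genes 4 were lower in sgSgf29 cells, among them Hspe1 at -1.53, Hspa8 at -1.03, Hsp90aa1 at -0.99 and Hsph1 at -0.27 on the log2 scale, and the last did not pass when library sizes alone were used for scaling (log2 fold change -0.04, adjusted p = 0.71, edgeR). Their summed level was 1710.0 to 1912 CPM in the sgSgf29 libraries and 3426 to 3831 CPM in the sgCtrl libraries. Hspa8 alone, at a mean of 1142 CPM in sgSgf29 cells and 2332 CPM in sgCtrl cells, made up most of these sums. The other tested gene, Dnajb1, named after its value was seen, was at 0.06 and did not pass (edgeR, adjusted p = 0.50). Hspa1b had 0 reads in all libraries. Hspa1a had 0, 0 and 1 reads in the sgSgf29 libraries and 2, 3 and 0 reads in the sgCtrl libraries. Hspb1 had 1 read in sgCtrl library 2 and 0 elsewhere. Hspa1a, Hspa1b and Hspb1 thus had too few reads to be tested. Without sgSgf29 library 1, the members called were 4 higher and 2 lower. The part of handling in these results was not tested.

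Of 8 tested genes of the ATF4 stress response, a known inducer of Atf3, 0 were higher, 4 were lower and 4 did not pass (edgeR, adjusted p under 0.05), with a median log2 fold change of -0.42. At an unadjusted p under 0.05, and with DESeq2 or limma-voom, the count of higher genes was also 0. Leaving out sgSgf29 library 2 or library 3, or using no filter on low counts, gave 1. Atf4 fell to 243.7 ± 16.7 CPM in sgSgf29 cells, against 411.1 ± 7.53 CPM in sgCtrl cells (SD, n = 3 each), giving a log2 fold change of -0.75. Ddit4, an inhibitor of mTOR signaling, Ddit3, which encodes CHOP, and Asns, the asparagine synthetase, were at -1.02, -0.79 and -0.70. With scaling by library size alone, 3 of the 8 were called higher and 4 lower. With TMM scaling, Atf3 was thus higher in libraries in which these 4 genes were lower and the other 4 did not pass. The part of the ATF4 stress response in the change of Atf3 was not tested.

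Of 12 genes that textbooks name as AP-1 targets, 10 were tested, of which 7 were higher, 1 was lower and 2 did not pass, with a median log2 fold change of 0.85. Spp1, which encodes osteopontin, had 86.3 ± 4.25 CPM in sgSgf29 cells and 10.3 ± 1.22 CPM in sgCtrl cells (SD, n = 3 each), giving a log2 fold change of 3.07 (adjusted p = 1.5e-16, edgeR). The gelatinase Mmp9, the urokinase receptor Plaur and the adhesion receptor Cd44 had log2 fold changes of 1.97, 1.28 and 1.11. These genes are also expressed by maturing myeloid cells. The lower gene, Vegfa, named after its value was seen, was at -0.26, and at -0.03 with scaling by library size alone, where it did not pass (adjusted p = 0.67, edgeR).

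**Figure D4:**
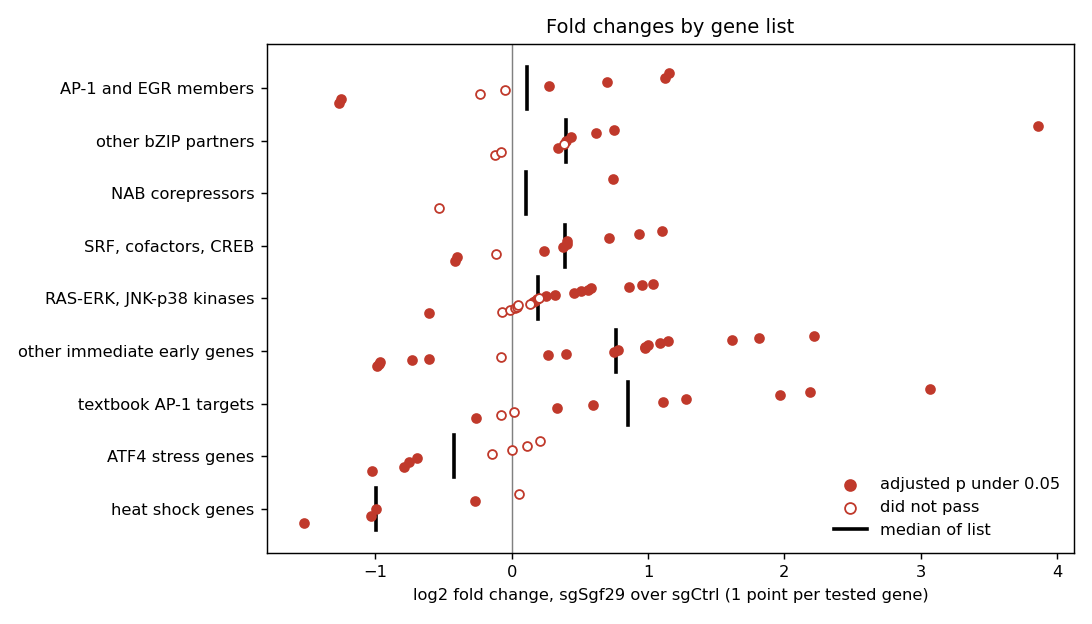
Log2 fold change, sgSgf29 over sgCtrl (horizontal axis), of each tested gene of the members and of 8 related gene lists (1 row each). Filled points passed an adjusted p under 0.05, open points did not, and the black bars are the medians, from -0.99 for the heat shock genes to 0.85 for the textbook AP-1 targets, with 0.11 for the members.

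Markers of maturation moved in the same libraries. Of 8 neutrophil markers 6 were higher and 2 lower in sgSgf29 cells, with a summed level of 24086 to 25625 CPM in the sgSgf29 libraries and 8225 to 8971 CPM in the sgCtrl libraries. Most neutrophil genes thus stood higher in sgSgf29 cells. The calcium-binding protein genes S100a9 and S100a8, the surface marker Ly6g and the granule collagenase Mmp8 had log2 fold changes of 1.92, 1.52, 2.10 and 2.89. The lower ones, Ltf and Camp, named after their values were seen, were at -0.86 and -0.16, and Camp was at 0.07 when library sizes alone were used for scaling. Of 11 monocyte and macrophage markers 8 were tested, of which 6 were higher and 1 was lower, with sums of 1762 to 1796 CPM in the sgSgf29 libraries and 1544 to 1751 CPM in the sgCtrl libraries. Adgre1, Ccr2, Cd68 and Itgam had log2 fold changes of 4.39, 3.17, 2.21 and 1.96. The lower gene, Ly6c2, named after its value was seen, had 1035 ± 26.7 CPM in sgSgf29 cells and 1490.3 ± 101.3 CPM in sgCtrl cells (SD, n = 3 each), most of these sums (log2 fold change -0.53, edgeR, adjusted p = 2.0e-06). Mrc1, C1qa and C1qb had 0 reads in all libraries. Of 8 leukemic progenitor markers 3 were higher and 4 lower, with sums of 1216 to 1257 CPM in the sgSgf29 libraries and 1406 to 1485 CPM in the sgCtrl libraries. The sums of the groups did not overlap for any of these 3 lists, and the neutrophil genes were apart by the most. S100a9 and S100a8 made up most of the neutrophil sums, at means of 13074 and 7967 CPM in sgSgf29 cells. In sgCtrl cells they were at 3447 and 2779 CPM. Spi1, named after its value was seen, was the largest part of the progenitor sums and was higher. It had 452.8 CPM in sgSgf29 cells and 363.8 CPM in sgCtrl cells. A few genes thus set these sums. Mpo, Hoxa9 and Myb were at -1.83, -1.37 and -0.69, and Ptprc, which encodes CD45, was at 0.65.

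Markers of other lineages were low in both groups. The 6 erythroid genes summed to at most 0.0451 CPM in a sgSgf29 library and at most 0.0670 CPM in a sgCtrl library, with 5 of them at 0 throughout. The 4 megakaryocyte genes summed to 5.72 to 7.50 CPM in the sgSgf29 libraries and 8.37 to 9.66 CPM in the sgCtrl libraries, with 0 reads of Pf4. Gp9 had 5.44 ± 1.11 CPM in sgSgf29 cells and 6.75 ± 0.592 CPM in sgCtrl cells and did not pass, and Itga2b was lower (log2 fold change -1.13, edgeR, adjusted p = 0.0017). The 4 mast and basophil genes summed to 2.79 to 3.91 CPM in the sgSgf29 libraries and 9.44 to 10.1 CPM in the sgCtrl libraries, with 0 reads of Cpa3 and Fcer1a. Most of this was the basophil protease gene Mcpt8, which was lower, at 2.80 ± 0.511 CPM in sgSgf29 cells and 9.61 ± 0.333 CPM in sgCtrl cells (SD, n = 3 each, log2 fold change -1.78, edgeR, adjusted p = 1.1e-08). The sums were 0.234 to 0.451 CPM in sgSgf29 and 0.400 to 1.27 CPM in sgCtrl libraries for the 4 B cell genes, 3.27 to 4.92 CPM in sgSgf29 and 8.37 to 9.79 CPM in sgCtrl libraries for the 4 T and NK cell genes, and 0.117 to 0.270 CPM in sgSgf29 and 0 to 0.127 CPM in sgCtrl libraries for the 4 fibroblast genes. Nkg7, a gene of cytotoxic cells, made up most of the T and NK cell sum and was lower, at 3.23 ± 0.663 CPM in sgSgf29 cells and 7.89 ± 0.720 CPM in sgCtrl cells (SD, n = 3 each, log2 fold change -1.31, edgeR, adjusted p = 1.7e-06). The part of maturation in the changes of Fosl2, Fosl1, Fos, Jun, Jund and Atf3 was not tested.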

How the data were processed

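RNA was sequenced in 6 libraries, 3 sgSgf29 and 3 sgCtrl. The authors deposited raw counts per gene in 1 table. The study's methods name STAR, featureCounts and edgeR. STAR 2.6.0a and GRCm38 are given in the processing notes of the submitters, while the study's methods name another version of STAR. Another 5 entries resemble the summary lines of htseq-count, held 25.8% to 31.4% of each library and were left out. The strand setting is not given in the sources used here.

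Genes were filtered with filterByExpr (10 reads at the median library size, 15 in total), scaled by TMM (factors 1.06 to 1.10 for sgSgf29 and 0.917 to 0.934 for sgCtrl) and tested in edgeR 4.0.16 (quasi-likelihood test, R 4.3.3), with adjustment over 11169 genes after Benjamini and Hochberg and a threshold of 0.05. The procedure was tested on simulated data. Alternatives used other scalings and filters, DESeq2 1.42.0, limma-voom (limma 3.58.1), the likelihood ratio test, a threshold of 0.01, the replicate number as a block, and the removal of single libraries. No pair of libraries agreed within sampling noise. Lengths, promoters and overlaps are from RefSeq and GENCODE on GRCm38.

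The members and lists were chosen with earlier results of these data known. Named genes were all members, Sgf29, from each list the up to 4 called genes of smallest adjusted p, and all genes of lists of 4 or fewer, except that for the small marker lists sums and genes at 0 are given. Others are said to be named after their values were seen.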

Additional observations from a re-analysis of the deposited data

How the results depend on the processing

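Of 143 refits of Sgf29 and the 8 tested members under other settings, 139 kept the direction and the side of the threshold, 1 lost its call and 3 changed sign. The lost call was Jund without sgCtrl library 2. The sign changes were all of Junb, at 0.18 with scaling by library size alone, 0.0189 without sgSgf29 library 3 and 0.00921 without sgCtrl library 3 on the log2 scale, where leaving out single libraries gave -0.13 to 0.02. The members called higher numbered 4 in all settings but 2, being 5 with scaling by library size alone and 3 without sgCtrl library 2, and 2 were called lower throughout. Over all genes, scaling by library size alone gave 5575 higher and 2385 lower genes, against 3957 and 3842 with TMM, and the median log2 fold change moved to 0.24. Leaving out each library in turn gave 3662 to 3943 higher and 3430 to 3833 lower genes. The deviation of each gene from its group mean, on the log2 scale, was correlated between sgSgf29 and sgCtrl libraries. These correlations of deviations were 0.03, 0.08 and 0.12 for same-numbered libraries and -0.12 to 0.04 for differently numbered ones. These low values do not settle whether the replicate numbers pair the samples. With the replicate number as a block, 4059 genes were higher and 3937 lower. Of the members 4 were then higher and 2 lower, and 1 of the other bZIP genes was lower. With a filter at 50 reads Egr2 was no longer tested. Depth limits what can be said of Fosb, Egr1 and Egr2.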
